A study of Homo sapiens with 4 samples.

Results

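Aminoacyl-tRNA synthetases are the enzymes that attach each amino acid to its transfer RNA, the step that sets which amino acid a codon is read as. Their mRNA was compared between control and NRP-1-transfected BT-474 cells. The enzymes were chosen by gene name, and all 35 named genes were found among the 18882 genes listed in the libraries. Of these, 19 encode enzymes of the cytosol and 16 encode enzymes of the mitochondrion. All 35 passed the filter on low counts, so every one of them was tested.

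BT-474 is an established human breast cancer cell line of luminal B-like type. The control cells carry the label wild-type and were sequenced in 2 libraries, numbered 1 and 2 in their titles. The BT-474 NRP-1 cells were sequenced in 2 libraries, numbered 2 and 3, and were stably transfected with the pPTuner IRES2 plasmid carrying the cDNA of NRP-1, a transmembrane receptor for semaphorins and vascular endothelial growth factor. Both groups were kept in RPMI-1640 with fetal bovine serum, and the antibiotic Geneticin is stated for the NRP-1 cells only. The transfected colonies were isolated and selected with Geneticin, and how many of them make up the sequenced cells is not given in the sources used here. Empty-plasmid cells were made in the study, but no library carries that label. In these libraries, effects of the plasmid, of the antibiotic, of colony picking and of NRP-1 therefore cannot be told apart. By quantitative PCR the paper reports that empty-plasmid cells resembled wild-type cells in a few genes, DDIT3 among them, but no synthetase was on its list. Nothing says that the libraries of a group came from separate cultures, and p-values measure only the spread between these libraries, which may be technical.

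The expected counts, which are RSEM's estimates of reads per gene, summed to between 8243595 and 8448926 per library. As a check of the labels, NRP1 rose from 7 and 8 control reads to 103 and 62 reads, by 3.38 on the log2 scale (standard error 0.42, adjusted p = 0.044 by the quasi-likelihood test of edgeR, adjusted after Benjamini and Hochberg). The biological coefficient of variation was 0.225 within NRP-1 and 0.064 within control cells. All 10 luminal epithelial markers had over 3 reads in at least 1 library, with a summed level of 4490 to 4491 FPKM in control and 4822 to 5546 FPKM in NRP-1 cells, FPKM being a fragment count scaled by transcript length and by mapped fragments. Of the basal markers 2 of 4 were found, with KRT14 at 0 and sums of 0.79 to 1.32 FPKM in control and 1.32 to 2.5 FPKM in NRP-1 cells. Of the fibroblast markers 2 of 6 were found, with PDGFRB and DCN at 0 and sums of 34.97 to 35.28 FPKM against 26.98 to 30.13 FPKM. Of the leukocyte markers 2 of 4 were found, with CD3E and CD14 at 0 and sums of 18.96 to 22.03 FPKM against 7.24 to 7.57 FPKM. All 3 endothelial markers were found, at sums of 0.79 to 1.22 FPKM against 1.55 to 1.97 FPKM. Nearly all of the fibroblast sum was COL1A1, at 35.2 and 34.97 FPKM in control and 30.13 and 26.83 FPKM in NRP-1 libraries. CD68 made up most of the leukocyte sum, at 20.79 and 18.14 FPKM in control and 6.84 and 5.86 FPKM in NRP-1 libraries. A sum that rests on 1 gene does not show that cells of that type were present. The part of these shifts in the results below was not tested, and in bulk RNA fewer cells of a type and less RNA per cell cannot be told apart.

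The synthetases fall into class I and class II, which differ in the fold of the catalytic domain. Most amino acids have a cytosolic enzyme and a separate mitochondrial enzyme, both encoded in the nucleus, and GARS1 and KARS1 serve both compartments. Several cytosolic enzymes sit together with the scaffold proteins AIMP1, AIMP2 and EEF1E1 in the multisynthetase complex. When amino acids are scarce or unfolded proteins gather in the endoplasmic reticulum, the transcription factor ATF4 is translated and switches on genes of amino acid supply, among them many cytosolic synthetases, by binding C/EBP-ATF response elements.

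Levels were first compared between enzymes in the deposited FPKM, which is per length. GARS1, the glycine enzyme, had the highest mRNA level in control cells, at 201 ± 0.375 FPKM (SD, n = 2), and AARS1, the alanine enzyme, followed at 184 ± 3.34 FPKM. NARS1 for asparagine had 132 ± 4.07, WARS1 for tryptophan 123 ± 4.87 and SARS1 for serine 118 ± 7.33 FPKM, and in this order NARS1 and WARS1 lay apart by little more than their spread, while the values of WARS1 and SARS1 overlapped. At the low end of the cytosolic enzymes stood VARS1 for valine at 16.6 ± 0.269 FPKM and HARS1 for histidine at 15.6 ± 0.191 FPKM. The median cytosolic enzyme had 47.1 and 46.2 FPKM in the control libraries and 42.0 and 45.2 FPKM in the NRP-1 libraries. The median mitochondrial enzyme had 9.47 and 10.3 FPKM in control libraries against 9.87 and 12.5 FPKM in NRP-1 libraries. Among the mitochondrial enzymes TARS2 for threonine was the highest in control cells, at 48.5 ± 3.08 FPKM, and WARS2 for tryptophan the lowest, at 3.99 ± 0.269 FPKM.

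**Figure D1:**
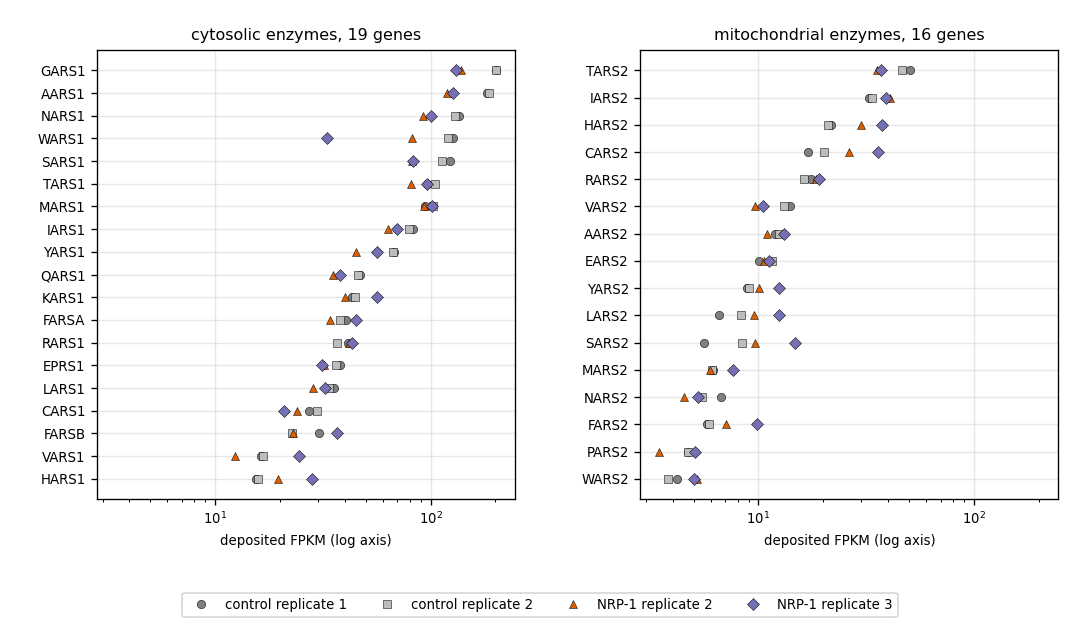
Level of each synthetase mRNA in each of the 4 libraries, in FPKM on a log axis, with a point per library and cytosolic and mitochondrial enzymes set apart. GARS1 and AARS1 stand highest in the control libraries, near 201 and 184 FPKM, and most mitochondrial enzymes lie below the cytosolic ones.

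Summed over the 19 genes, the cytosolic enzymes had less mRNA in BT-474 NRP-1 cells, a sum in which the most abundant genes weigh most. Their counts per library size (CPM, after TMM scaling) summed to 4381 and 4320 in the control libraries and to 3193 and 3415 in the NRP-1 libraries, so both NRP-1 sums were below both control sums. The mitochondrial enzymes summed to 661 and 665 CPM in control and 669 and 769 CPM in NRP-1 libraries, both above control, replicate 2 by only a few CPM. The median log2 fold change was -0.28 over the 19 cytosolic enzymes, with 14 of them below 0, and 0.17 over the 16 mitochondrial enzymes, with 6 below 0. Over all 14298 genes tested the median was 0.02, and 48.2% lay below 0.

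No member passed an adjusted p of 0.05 in the edgeR test, against 1.09% of all genes. DESeq2, whose Wald test was run on the same counts, called AARS1, GARS1 and SARS1 lower, 3 of 19 cytosolic enzymes against 3.86% of all genes. DESeq2 called no member higher, against 2.8% of all genes. At an unadjusted p under 0.05 in edgeR, 9 of 19 cytosolic enzymes (47.4%) and 2 of 16 mitochondrial enzymes (12.5%) were lower, beside 12.1% of all genes. In the other direction 1 cytosolic (5.26%) and 4 mitochondrial enzymes (25%) were higher, beside 10.8% of all genes. In CPM, both NRP-1 libraries lay below both control libraries for 12 cytosolic (63.2%) and 3 mitochondrial enzymes (18.8%), beside 28.3% of all genes. Both lay above both control libraries for 1 cytosolic (5.26%) and 9 mitochondrial enzymes (56.2%), beside 27.9% of all genes. With a library dropped, the calls moved over all genes as well as the members. Dropping NRP-1 replicate 2 left 22 members called, beside 36.8% of all genes, and dropping NRP-1 replicate 3 left 18, beside 28.2%, in fits where the spread came from the control libraries alone. Dropping either control library left 0 members and 0 genes called. At an unadjusted p under 0.05, lower cytosolic enzymes numbered 2 when control replicate 1 was dropped, beside 3.34% of all genes, and 3 for control replicate 2, beside 4.98%. They numbered 10 for NRP-1 replicate 2, beside 22.1% of all genes, and 14 for NRP-1 replicate 3, beside 19.1%.

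**Figure D2:**
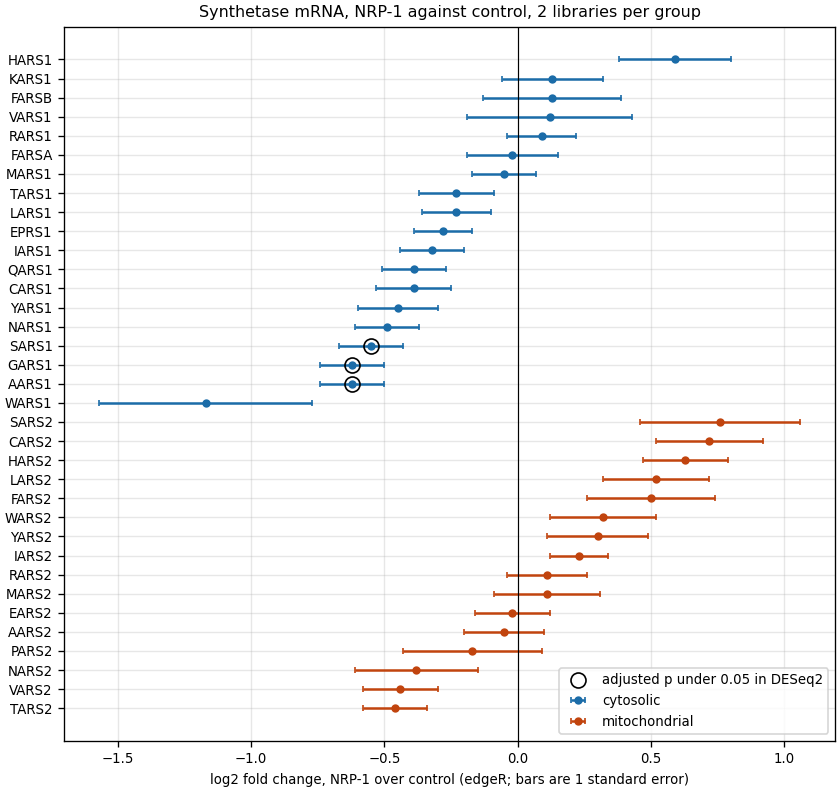
Log2 fold change of each of the 35 synthetases, NRP-1 over control (edgeR, 2 libraries per group), with bars of 1 standard error and colors for the compartment. WARS1 lies lowest at -1.17 with the widest bar, and SARS2 and CARS2 lie highest at 0.76 and 0.72.

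The 3 cytosolic enzymes that DESeq2 called are all class II enzymes. AARS1 had 5047 and 5216 reads in control and 3363 and 3612 reads in NRP-1 cells. Both NRP-1 libraries were well below both controls, at 65.2% of the control level. Its log2 fold change was -0.62 (standard error 0.12), with an adjusted p of 0.0684 in edgeR and 0.00576 in DESeq2. GARS1 had 4589 and 4635 reads in control and 3206 and 3066 reads in NRP-1 cells. The groups were as far apart as for AARS1, at 65.3% of control and a log2 fold change of -0.62 (standard error 0.12), with an adjusted p of 0.068 in edgeR and 0.00557 in DESeq2. SARS1, which also charges the transfer RNA of selenocysteine with serine, had 2067 and 1898 reads in control and 1399 and 1424 reads in NRP-1 cells. The NRP-1 libraries agreed closely and lay below both controls, at 68.3% of control and a log2 fold change of -0.55 (standard error 0.12), with an adjusted p of 0.0783 in edgeR and 0.0348 in DESeq2.

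NARS1 for asparagine came next, with 3209 and 3095 reads in control and 2229 and 2438 reads in NRP-1 cells. Its groups did not overlap, at a log2 fold change of -0.49 with a standard error of 0.12 and an adjusted p of 0.0931 in edgeR and 0.0565 in DESeq2. YARS1 for tyrosine had 1750 and 1746 reads in control, with 1184 and 1491 reads in NRP-1 cells, or -0.45 on the log2 scale (standard error 0.15, adjusted p = 0.156 in edgeR). Its NRP-1 libraries were both low, but apart from each other. CARS1 for cysteine had 594 and 649 reads in control against 526 and 463 in NRP-1 cells, or -0.39 on the log2 scale (standard error 0.14, adjusted p = 0.169 in edgeR). TARS1 for threonine had a log2 fold change of -0.23 (standard error 0.14). FARSA and FARSB, the subunits of the phenylalanine enzyme, had overlapping groups, at log2 fold changes of -0.02 (standard error 0.17) and 0.13 (standard error 0.26).

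For the 7 enzymes of the multisynthetase complex the CPM summed to 1359 and 1341 in control and 1131 and 1249 in NRP-1 libraries, whereas the 12 cytosolic enzymes outside it summed to 3022 and 2979 in control and 2062 and 2166 in NRP-1 libraries. The median log2 fold change was -0.23 inside the complex and -0.42 outside it, a difference that was not tested. Within the complex, QARS1 for glutamine had 1109 and 1096 reads in control and 842 and 911 in NRP-1 cells, and its groups did not overlap (log2 fold change -0.39, standard error 0.12, adjusted p = 0.133 in edgeR). IARS1 for isoleucine had a log2 fold change of -0.32 (standard error 0.12), EPRS1, which joins the glutamate and proline enzymes in a single protein, -0.28 (standard error 0.11) and LARS1, the leucine enzyme and a leucine sensor, -0.23 (standard error 0.13), each with both NRP-1 libraries below both controls. KARS1 for lysine, RARS1 for arginine and MARS1 for methionine had overlapping groups, with log2 fold changes of 0.13, 0.09 and -0.05. By class, the cytosolic median was -0.32 over 9 class I enzymes and -0.23 over 9 class II enzymes, leaving out EPRS1, which holds a domain of each class.

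WARS1, the tryptophan enzyme, which interferon gamma is known to induce, had the lowest log2 fold change of the 35 genes. It had 2918 and 2799 reads in control and 1893 and 755 reads in NRP-1 cells. Both NRP-1 libraries were low, but replicate 3 held far fewer reads than replicate 2, a log2 ratio of -1.33 between them. Its log2 fold change of -1.17 had a standard error of 0.40, with an adjusted p of 0.162 in edgeR and 0.319 in DESeq2. Leaving out NRP-1 replicate 2 gave -1.99 and leaving out replicate 3 gave -0.65, so the size rested on which library was kept.

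The NRP-1 libraries also differed from each other in other enzymes. Replicate 3 was above replicate 2 in 15 of 19 cytosolic and 14 of 16 mitochondrial enzymes, and in 49.8% of the 11860 genes with at least 5 CPM. The median log2 ratio of replicate 3 over replicate 2 was 0.13 for the cytosolic and 0.31 for the mitochondrial enzymes. VARS1, the valine enzyme, had 586 and 604 reads in control and 449 and 899 reads in NRP-1 cells. It was lower than control in NRP-1 replicate 2 and higher in replicate 3, so its log2 fold change of 0.12 (standard error 0.31) had no fixed sign between the libraries: dropping NRP-1 replicate 2 gave 0.53, and dropping replicate 3 of that group gave -0.46. FARSB and KARS1 were also higher in replicate 3 than in replicate 2, by log2 ratios of 0.67 and 0.51. The median absolute log2 ratio between the libraries of a group was 0.181 in NRP-1 and 0.07 in control cells for the cytosolic enzymes, and 0.306 against 0.109 for the mitochondrial enzymes. Over the genes of at least 5 CPM it was 0.259 against 0.119, so the wider gap between the NRP-1 libraries was general.

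**Figure D3:**
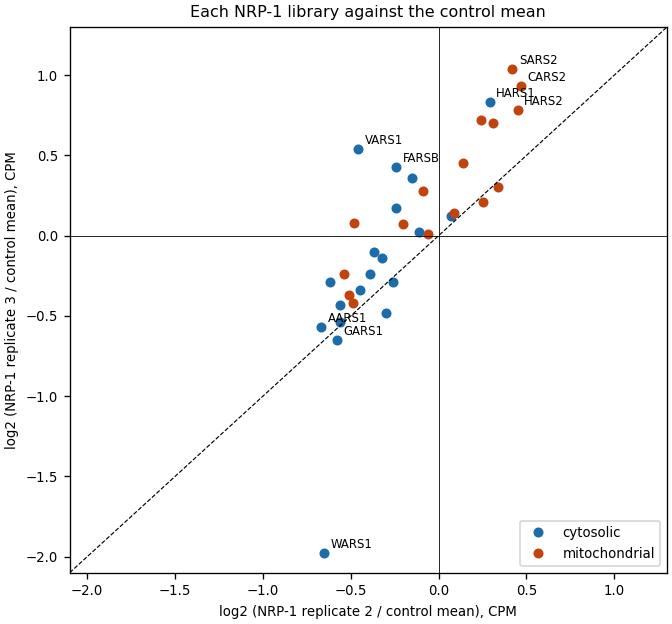
Log2 ratio of each NRP-1 library to the control mean (CPM), with NRP-1 replicate 2 on the horizontal and replicate 3 on the vertical axis, a point per synthetase and a dashed line where the libraries are equal. Most points lie above the line, WARS1 far below it, and VARS1 is below 0 in replicate 2 and above 0 in replicate 3.

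Many mitochondrial enzymes lay in the other direction. SARS2, the serine enzyme, had 96 and 145 reads in control and 168 and 258 reads in NRP-1 cells. Both NRP-1 libraries were above both controls, although each group was spread (log2 fold change 0.76, standard error 0.30, adjusted p = 0.203 in edgeR). CARS2, the cysteine enzyme, had 259 and 310 reads in control and 410 and 564 reads in NRP-1 cells, or 0.72 on the log2 scale (standard error 0.20, adjusted p = 0.115 in edgeR and 0.0755 in DESeq2). LARS2 for leucine had 230 and 293 reads in control against 338 and 444 reads in NRP-1 cells, again without overlap (log2 fold change 0.52, standard error 0.20, adjusted p = 0.2 in edgeR). FARS2 for phenylalanine, a single-chain enzyme unlike its cytosolic counterpart, had a log2 fold change of 0.50 (standard error 0.24). WARS2 for tryptophan, YARS2 for tyrosine, IARS2 for isoleucine and RARS2 for arginine were higher in both NRP-1 libraries, with log2 fold changes of 0.32, 0.30, 0.23 and 0.11. The sizes of several rested on single libraries. With a library dropped, SARS2 ran from 0.42 (without NRP-1 replicate 3) to 1.08 (without control replicate 2), and was 0.50 without control replicate 1. Without NRP-1 replicate 3, CARS2 was 0.47, LARS2 0.31, FARS2 0.24 and YARS2 0.14, all still above 0.

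TARS2 and VARS2, for threonine and valine, differed in the other direction. TARS2 had 1142 and 1052 reads in control and 812 and 856 reads in NRP-1 cells, with both NRP-1 libraries lower (log2 fold change -0.46, standard error 0.12, adjusted p = 0.108 in edgeR). VARS2 had 415 and 392 reads in control against 295 and 325 in NRP-1 cells (log2 fold change -0.44, standard error 0.14, adjusted p = 0.149 in edgeR). NARS2 for asparagine was also lower in both NRP-1 libraries, at -0.38 (standard error 0.23). AARS2, the mitochondrial partner of AARS1, had 475 and 500 reads in control and 443 and 535 in NRP-1 cells, and its groups overlapped (log2 fold change -0.05, standard error 0.15). EARS2 for glutamate, MARS2 for methionine and PARS2 for proline overlapped as well, at -0.02, 0.11 and -0.17.

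For 13 amino acids a single cytosolic and a single mitochondrial gene could be set side by side in FPKM. The ratio of cytosolic to mitochondrial mRNA was lower in both NRP-1 libraries than in both controls for 7 of them, alanine, cysteine, isoleucine, leucine, serine, tryptophan and tyrosine. It was higher for threonine and valine and overlapped for 4, histidine, methionine, asparagine and arginine. Both higher pairs were separated by very little, since NRP-1 replicate 2 nearly equalled the higher control. For threonine the ratio was 1.902 and 2.271 in control and 2.278 and 2.607 in NRP-1 libraries. For valine it was 1.163 and 1.278 in control and 1.28 and 2.325 in NRP-1 libraries. No such share was computed for ratios of other gene pairs. Among single genes, the CPM of 28.3% lay lower and of 27.9% higher in both NRP-1 libraries than in both controls. The median ratio was 5.42 and 4.04 in control libraries and 3.0 and 2.61 in NRP-1 libraries. The ratio WARS1 to WARS2 was 30.4 and 31.6 in control and 15.8 and 6.62 in NRP-1 cells. For SARS1 to SARS2 it was 21.9 and 13.4 in control and 8.52 and 5.65 in NRP-1 cells, with no overlap. For cysteine the order of the enzymes turned, since CARS1 was above CARS2 in both controls, at 1.62 and 1.47, and below it in both NRP-1 libraries, at 0.911 and 0.579. AARS1 to AARS2 was 15.2 and 15.0 in control and 10.9 and 9.68 in NRP-1 cells.

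HARS1 and HARS2, the cytosolic and mitochondrial histidine enzymes, are neighbours that start head to head on opposite strands, and both had more reads in NRP-1 cells. The RefSeq stretch between and around their starts, chr5:140691321-140691504 of GRCh38.p14 on the plus strand, is shown because a single short region holds both starts, with the 86 bases from the HARS1 start to the HARS2 start, both included, in capitals:
HARS1 and HARS2: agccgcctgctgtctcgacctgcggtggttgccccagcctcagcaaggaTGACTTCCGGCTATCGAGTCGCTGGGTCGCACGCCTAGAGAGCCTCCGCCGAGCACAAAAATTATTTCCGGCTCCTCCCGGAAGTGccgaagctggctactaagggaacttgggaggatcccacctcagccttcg

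HARS1 had 297 and 298 reads in control and 380 and 553 reads in NRP-1 cells (log2 fold change 0.59, standard error 0.21, adjusted p = 0.169 in edgeR). HARS2 had 448 and 438 reads in control and 630 and 795 reads in NRP-1 cells (log2 fold change 0.63, standard error 0.16, adjusted p = 0.0937 in edgeR). In both genes the control libraries were nearly equal and NRP-1 replicate 3 was the highest library. Without that library the log2 fold change of HARS1 was 0.30 and that of HARS2 0.45. Among the 19 cytosolic enzymes, only HARS1 had both NRP-1 libraries above both controls in CPM. The annotated exons of the pair share 402 bases and the genes are close paralogs, so how reads were divided between them is uncertain, and their summed reads gave a log2 fold change of 0.61 (adjusted p = 0.11 in edgeR).

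The ATF4-type element was looked for as TGATGNAA on either strand, with N any base, in RefSeq promoter windows of GRCh38.p14 that run from 250 bases before to 50 after each start. A window was found for 30 members, and LARS1, VARS1, YARS1, AARS2 and VARS2 had none in the table. The element stood in 7 of 16 cytosolic genes (43.8%) and 1 of 14 mitochondrial genes (7.14%), while 3.62% of all windows and 2.78% of tested genes with a window held it. The stretches with 12 bases on each side are shown for 7 of these genes because they hold the element, on each gene's own strand and with the 8 matching bases in capitals, TTGCATCA being TGATGCAA read on the other strand:
Element in AARS1: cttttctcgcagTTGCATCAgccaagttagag
Element in CARS1: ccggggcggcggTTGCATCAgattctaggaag
Element in GARS1: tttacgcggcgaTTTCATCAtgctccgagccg
Element in MARS1: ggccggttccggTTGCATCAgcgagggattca
Element in NARS1: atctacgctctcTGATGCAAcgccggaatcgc
Element in TARS1: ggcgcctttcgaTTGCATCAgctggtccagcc
Element in YARS2: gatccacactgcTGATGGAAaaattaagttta

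These stretches lie at chr16:70289674-70289705 (minus strand) for AARS1, chr11:3057406-3057437 (minus) for CARS1 and chr7:30594833-30594864 (plus) for GARS1. The others lie at chr12:57488052-57488083 (plus) for MARS1, chr18:57621803-57621834 (minus) for NARS1, chr5:33440955-33440986 (plus) for TARS1 and chr12:32756075-32756106 (minus) for YARS2. In CARS1 and MARS1 the match spans the annotated start, and in AARS1 it begins 187 bases before it. The 7 cytosolic genes with the element had log2 fold changes from -0.62 to -0.05 with a median of -0.39, and all 7 were below 0. The 9 cytosolic genes with a window and no match ranged from -1.17 to 0.59 with a median of -0.02, and 5 were below 0. The difference between these sets was not tested, and the element was chosen with earlier results of these data known. SARS1 and WARS1 were lower in both NRP-1 libraries with no match in their windows, and MARS1 had the element with overlapping groups. A match describes letters only, and binding was not measured.

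The whole AARS1 window, chr16:70289457-70289756 on the minus strand, is shown with the element in capitals, since AARS1, like GARS1, held the element and was called by DESeq2:
AARS1 promoter window: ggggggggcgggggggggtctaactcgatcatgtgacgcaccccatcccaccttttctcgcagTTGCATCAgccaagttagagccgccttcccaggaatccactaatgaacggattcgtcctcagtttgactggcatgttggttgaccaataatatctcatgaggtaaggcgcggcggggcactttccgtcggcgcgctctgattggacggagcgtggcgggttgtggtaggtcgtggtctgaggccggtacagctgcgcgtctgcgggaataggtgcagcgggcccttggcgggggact

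Lists of genes with related functions were set beside the enzymes, and whether they share a regulator with them in these cells was not tested. Of the 32 genes of the amino acid response, 27 (84.4%) had a log2 fold change below 0, beside 48.2% of all genes. Their median was -0.57. The list was chosen with earlier results of these data known. edgeR called 3 of them lower at an adjusted p under 0.05, DDIT3, SESN2 and SLC3A2, and none higher, beside 1.09% of all genes in either direction. DESeq2 called 11 lower, beside 3.86% of all genes. DDIT3, a transcription factor of the stress response, fell from 2621 and 2693 reads to 623 and 555 (log2 fold change -2.23, adjusted p = 0.0171 in edgeR). SLC3A2, the heavy chain of amino acid transporters, fell from 4466 and 4540 reads to 1850 and 1967 (log2 fold change -1.30, adjusted p = 0.0345 in edgeR). SESN2, a stress-induced regulator of mTORC1, fell from 698 and 749 reads to 166 and 284 (log2 fold change -1.74, adjusted p = 0.0483 in edgeR). ATF4 itself had 5080 and 5289 reads in control and 2978 and 4777 reads in NRP-1 cells, with replicate 3 near control (log2 fold change -0.48, adjusted p = 0.275 in edgeR). ASNS, asparagine synthetase and a target of ATF4, had 1779 and 1920 reads in control and 1695 and 769 in NRP-1 cells (log2 fold change -0.64, adjusted p = 0.325 in edgeR). ASNS, like WARS1, was far lower in NRP-1 replicate 3 than in replicate 2, whereas ATF4 was higher there.

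Of the 12 partners of charging, which include the scaffolds of the complex, editing factors and the mitochondrial amidation enzymes, edgeR called 0 at an adjusted p under 0.05, with 1 lower and 1 higher at an unadjusted p under 0.05, and DESeq2 called 0. The median log2 fold change was 0.00. The scaffold AIMP1 had 506 and 444 reads in control and 388 and 389 in NRP-1 cells, lower in both NRP-1 libraries (log2 fold change -0.35). AIMP2 and EEF1E1 had log2 fold changes of -0.26 and -0.38.

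Reads of 8 members could be mixed with those of a gene whose exons overlap theirs, since strand was not stated. MARS1 shares 62 exonic bases with DDIT3 on the other strand, and DDIT3 held about as many control reads as MARS1. MARS1 had 2277 and 2520 reads in control and 2312 and 2527 in NRP-1 cells, nearly the same values in both groups. With the reads of DDIT3 added, the log2 fold change went from -0.05 to -0.81 (adjusted p = 0.0495 in edgeR), a sum that carries the fall of DDIT3 itself. WARS1 shares 272 bases with WDR25, which had 114 and 145 reads in control and 90 and 73 in NRP-1 cells, far fewer than WARS1. SARS2 shares 1492 bases on the same strand with AC011455.2 and 349 bases with MRPS12, so its reads are uncertain too. The other pairs were EARS2 with UBFD1, YARS1 with S100PBP and AARS2 with TMEM151B and AL353588.1.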

How the data were processed

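RNA of the 4 libraries was selected by poly(A) and primed with random hexamers. The submitters' processing notes name bcl2fastq 2.16, HISAT2 2.0.1, Bowtie2 2.2.5 and RSEM, and the builds GRCh38 and hg19, without saying which served for which step, so no coordinates are taken from the files. For each library the authors deposited expected counts per gene, not normalized and 32.4 to 32.9% of them not whole, and FPKM, normalized by the authors for transcript length and mapped fragments. A table of the authors' own comparison (group means, log2 ratios and a probability score) was not used.

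Genes missing from a library's file were taken as 0 reads. After rounding, the expected counts went into edgeR 4.0.16 (R 4.3.3), with filterByExpr, TMM scaling and the quasi-likelihood F-test on group alone, and p-values were adjusted by Benjamini-Hochberg over 14298 genes. TMM factors lay between 0.986 and 1.014. A standard error is the absolute log2 fold change divided by the square root of F. For a single value, permuting 2 against 2 libraries allows no two-sided exact p below 0.33. Alternatives were DESeq2 1.42.0, limma-trend 3.58.1 on FPKM in log2 after adding 1 or 0.1 (mean FPKM 0.5 or more), no TMM, no count filter, and each library omitted. The test scripts were checked on simulated data. Symbols of 99.4% of 18882 gene IDs were matched through RefSeq, promoter windows came from RefSeq GRCh38.p14, and exon overlaps from a GENCODE annotation. All 35 members may be named, and of the other lists the genes called in edgeR and ATF4, ASNS and DDIT3. AIMP1, AIMP2, EEF1E1, TARS3, EEF1A1, EEF1A2, EEF1B2, EEF1D, EEF1G, EIF4G1, EIF4A1, EIF5 and COL1A1 were named after their values were seen. The members, the gene lists, the motif and the tests were chosen with earlier results of these data known. Some genes of the lists and a stretch of sequence are not reported here.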

Additional observations from a re-analysis of the deposited data

How the results depend on the processing

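With 2 libraries per group, the number of members called depended on the tool and on the NRP-1 libraries. At an adjusted p under 0.05 edgeR called 0 members, beside 1.09% of all genes, and DESeq2 called 3, all lower, beside 3.86%. With limma on either FPKM scale, library sizes without TMM and no filter, 0 were called in each. The share of all genes called was not computed for those settings. Omitting libraries singly, the number ran from 0 to 22, while the share of all genes called ran from 0 to 36.8%, and a lone library was then assumed to vary like the other group. The cytosolic median of -0.28 ran from -0.37 (without NRP-1 replicate 3) to -0.25 with a library left out, and the mitochondrial median of 0.17 from 0.11 (without NRP-1 replicate 3) to 0.24 (without NRP-1 replicate 2). In 168 of 178 other values the direction and the call stayed. Another 4 passed the threshold that had not, namely AARS1, GARS1 and SARS1 in DESeq2 and MARS1 with the reads of DDIT3 added. That sum carries the fall of DDIT3. The other 6 changed sign, namely FARSA at 0.00 on both FPKM scales and 0.02 without TMM, and EARS2 at 0.01 on both FPKM scales and without TMM. With a library left out, genes near 0 changed sign: FARSA ran from -0.24 to 0.17, FARSB from -0.24 to 0.42, KARS1 from -0.15 to 0.35, MARS1 from -0.11 to 0.02, VARS1 from -0.46 to 0.53, AARS2 from -0.19 to 0.06, EARS2 from -0.11 to 0.07, MARS2 from -0.08 to 0.27 and PARS2 from -0.47 to 0.07. Other genes kept their sign but moved by over 1.5 times. These included NARS2, LARS1, TARS1, RARS1 and RARS2, from -0.54 to -0.22, -0.32 to -0.15, -0.37 to -0.11, 0.01 to 0.18 and 0.06 to 0.17. They also included WARS1, HARS1, SARS2, CARS2, LARS2, FARS2 and YARS2, with values given above. From lowest to highest, YARS1 ran from -0.62 to -0.30, CARS1 from -0.49 to -0.30 and IARS1 from -0.39 to -0.25. WARS2 ran from 0.25 to 0.39 and HARS2 from 0.45 to 0.77. The number of cytosolic enzymes below 0 ran from 12 to 17 (14 with all libraries) and of mitochondrial enzymes from 3 to 7 (6 with all libraries), counts that were added after the data were seen. No paired analysis was possible because the labels of the groups share only the number 2.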

Other observations

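The elongation factors that bring charged transfer RNA to the ribosome and move it on are partners of the synthetases in protein synthesis. Of the 16 cytosolic translation factors, edgeR called 1, beside 1.09% of all genes. This was EEF2, the factor that moves the ribosome along the mRNA, which was lower at an adjusted p of 0.0442 with Benjamini-Hochberg adjustment. EEF2 had 28137 and 25412 reads in control and 12755 and 13852 reads in NRP-1 cells, a log2 fold change of -1.07 (standard error 0.14). EEF1A1, which carries charged transfer RNA to the ribosome, had 69966 and 63767 reads in control and 36934 and 34628 in NRP-1 cells. EEF1G, a subunit of its exchange factor, had 13469 and 11270 reads in control and 7480 and 7505 in NRP-1 cells. DESeq2 called EEF1A1 and EEF1G lower along with EEF2, beside 3.86% of all genes. The 16 genes lay on both sides of 0, with a median of 0.01. EEF1A2, EEF1B2 and EEF1D had log2 fold changes of -0.65, -0.14 and -0.11, while the initiation factors EIF4G1, EIF4A1 and EIF5 had 0.47, 0.57 and 0.57. Of the 9 mitochondrial translation factors, edgeR called 0 at an adjusted p under 0.05, beside 1.09% of all genes. DESeq2 also called 0, beside 3.86% of all genes lower and 2.8% higher. In edgeR 1 was higher at an unadjusted p under 0.05, beside 10.8% of all genes. The median log2 fold change was 0.05.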
